A study of Mus musculus with 42 samples.

Results

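The Cyp2b family of the mouse encodes cytochrome P450 enzymes of the endoplasmic reticulum that oxidise drugs, pesticides and steroids. Cyp2b9, Cyp2b10 and Cyp2b13 were taken by symbol from both count tables, and all 3 were found, of 55573 gene IDs in each table. Cyp2b10 is the textbook target of the constitutive androstane receptor (CAR, gene Nr1i3), a nuclear receptor that binds DNA together with RXR and that also shares targets with the pregnane X receptor (PXR, gene Nr1i2). Drugs that activate CAR or PXR raise Cyp2b10 along with other genes of drug oxidation, conjugation and export. Cyp2b9 and Cyp2b13 are known as genes of the female mouse liver, held low in males by the male pattern of growth hormone.

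Liver mRNA of male C57B6/J mice was counted to study how glucocorticoid and androgen signalling meet. The acute arm had 4 groups: Vehicle, CORT (corticosterone, the chief adrenal glucocorticoid of rodents), ENZA (enzalutamide, an antiandrogen drug) and CORT_ENZA, which received both agents. The chronic arm had 3 groups: Vehicle, CORT and CORT_ENZA. A chronic group on ENZA alone was not analysed here. Each group held 6 mice, 42 libraries in all, every one from snap-frozen liver, and no label names a transgene or gene deletion. The sources used here state no dose, no route, no length of treatment and no age. A Qiagen kit was used to isolate RNA of acute livers and a Macherey-Nagel kit for chronic livers, so kit and duration cannot be told apart. The labels give each library its own mouse number but do not say how mice were housed, so p-values measure the spread between these samples.

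Reads counted to genes numbered 18674151 to 20464521 per acute library and 15381724 to 19581723 per chronic library. At these depths 3 counts correspond to 0.147 to 0.161 and 0.153 to 0.195 CPM (edgeR's library-scaled count unit, with TMM factors). Below that level a gene can be missed by counting error alone. The 6 hepatocyte markers summed to 57570 to 135700 CPM per library and none was at 0 in a group, so the defining markers of liver were present throughout. Markers of other cells were much lower, with Kupffer cell markers summing to 69.5 to 471 CPM and B cell markers to 0.21 to 13.7 CPM. Vehicle mouse L19A and CORT_ENZA mouse L36A of the acute arm, and Vehicle mouse 11 and CORT_ENZA mouse 18 of the chronic arm, stood apart from their groups in an earlier look at these data. Leaving them out changed no call on Cyp2b9 or Cyp2b10.

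The 3 genes lie on the plus strand within 313 kb of chromosome 7 in GRCm38. Cyp2b10 (ENSMUSG00000030483) spans 25897620 to 25926624, Cyp2b13 (ENSMUSG00000040583) 26061497 to 26096197 and Cyp2b9 (ENSMUSG00000040660) 26173411 to 26210661. Their longest transcripts are 91.9% identical between Cyp2b9 and Cyp2b13, 89.0% between Cyp2b10 and Cyp2b13 and 87.9% between Cyp2b9 and Cyp2b10. The bases before the start sites, shown here because they are nearly the same in Cyp2b9 and Cyp2b13 and differ more in Cyp2b10, come from RefSeq on GRCm38.p6. In Cyp2b9 and Cyp2b13 the capitals mark the only bases at which their windows differ, and in Cyp2b10 they mark bases that were not matched to Cyp2b9 in the alignment. The lines give Cyp2b9 at chr7:26173159-26173408, Cyp2b13 at chr7:26061245-26061494 and Cyp2b10 at chr7:25897408-25897619. The first and second of these windows end at the base before the RefSeq start, while that of Cyp2b10 ends before the GENCODE start at 25897620, upstream of its RefSeq start at 25897658.
Cyp2b9: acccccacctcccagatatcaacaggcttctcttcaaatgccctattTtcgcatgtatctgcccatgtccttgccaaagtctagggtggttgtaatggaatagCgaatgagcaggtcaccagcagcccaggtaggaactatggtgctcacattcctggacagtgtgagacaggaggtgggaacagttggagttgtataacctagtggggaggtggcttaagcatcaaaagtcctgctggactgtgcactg
Cyp2b13: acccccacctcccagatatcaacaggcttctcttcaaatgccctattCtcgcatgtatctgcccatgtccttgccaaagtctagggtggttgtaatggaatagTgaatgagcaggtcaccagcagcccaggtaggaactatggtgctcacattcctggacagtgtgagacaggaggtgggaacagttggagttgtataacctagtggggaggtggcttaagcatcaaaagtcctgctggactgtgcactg
Cyp2b10: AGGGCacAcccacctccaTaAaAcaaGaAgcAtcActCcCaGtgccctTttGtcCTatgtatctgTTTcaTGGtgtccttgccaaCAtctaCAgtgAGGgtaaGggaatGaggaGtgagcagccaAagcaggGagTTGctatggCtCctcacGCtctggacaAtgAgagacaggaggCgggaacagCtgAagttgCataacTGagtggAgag

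The windows of Cyp2b9 and Cyp2b13 match at 248 of 250 bases (99.2%). The differences are T48C and C104T, with the Cyp2b9 base first and positions counted from 1 at the 5′ end of the printed window. The 212-base window of Cyp2b10 matches Cyp2b9 at 158 of 201 aligned bases (78.6%). Both strands from 250 bases before to 50 bases after each RefSeq start were searched for 4 motifs, so that the searched stretch of Cyp2b10 runs past its printed window. AGGTCA, the core recognition sequence of many nuclear receptors, has 1 match in Cyp2b9 and 1 in Cyp2b13, at position -138 from the start in each, and 0 in the Cyp2b10 window. Of 32851 mouse promoters of the same length, 16.3% hold it. TTCNNNGAA, the STAT site, TGTTTAC, a forkhead site, and the palindromic steroid receptor element have no match in the 3 windows, against 8.3%, 3.65% and 0.00913% of all promoters. The known drug-responsive enhancer of Cyp2b10 lies farther upstream and was not searched.

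Shared sequence bears on how reads were divided among the genes. Of the 100-base stretches of the longest transcript, 0% of Cyp2b10, 1.18% of Cyp2b9 and 9.29% of Cyp2b13 also occur in another gene. For 50-base stretches the shares are 9.69%, 11.2% and 27.3%. Reads were paired ends, and pairs placed in several loci stand in a summary line of their own in the tables, so such pairs were not counted for any of the genes. Levels of Cyp2b13, and to a lesser degree Cyp2b9, are therefore uncertain, while Cyp2b10 has no 100-base stretch in common with another gene.

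Cyp2b10 rose stepwise in the chronic arm, from a few reads per library in Vehicle to the largest increase of any gene tested in CORT_ENZA. In chronic Vehicle livers it was at 0.458 CPM in the lowest, 0.718 in the median and 1.49 in the highest of 6 mice (8 to 28 reads). In chronic CORT livers it was at 24.3, 55.5 and 96.8 CPM, and in chronic CORT_ENZA livers at 436.8, 902.6 and 1065 CPM. No mouse of a group reached the range of the next group. The means were 0.782 ± 0.368, 57.9 ± 23.96 and 842.5 ± 221 CPM (SD, n = 6 each). Mouse 4 was the lowest of the CORT_ENZA group, and the other 5 lay between 776.5 and 1065 CPM.

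**Figure D1:**
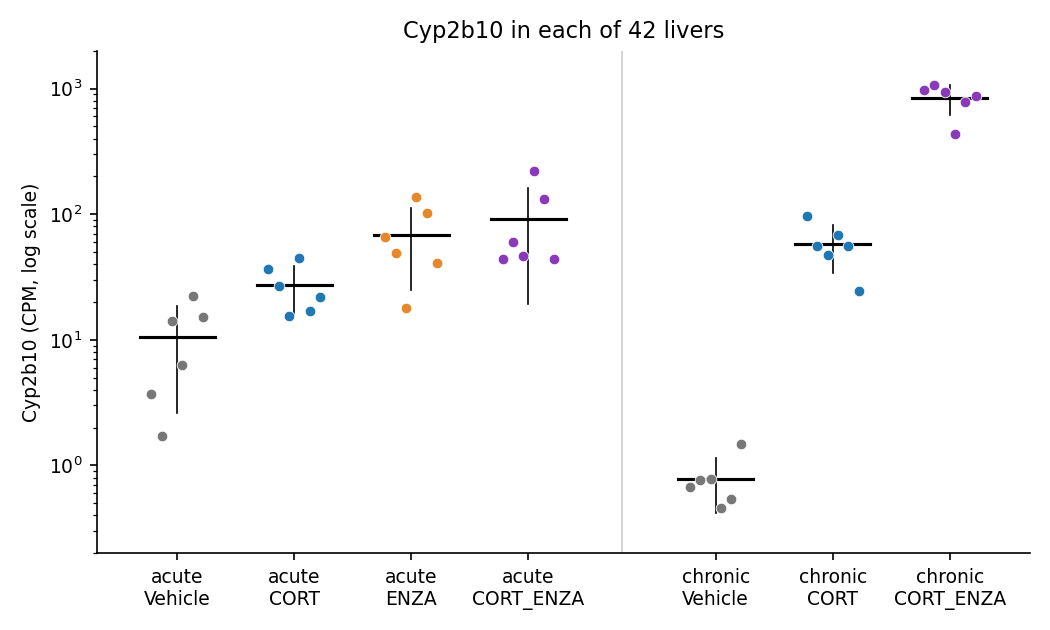
Cyp2b10 in each of the 42 livers, in CPM on a log axis. Points are mice, thick bars the group means and thin lines the SD of 6 mice, and the 3 chronic groups lie in separate bands (0.458 to 1.49, 24.3 to 96.8 and 436.8 to 1065 CPM) while in the acute arm neighbouring groups overlap and CORT_ENZA lies above Vehicle (43.7 to 219 against 1.73 to 22.5 CPM).

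With chronic CORT alone, Cyp2b10 rose by 6.18 ± 0.37 on the log2 scale (SE, a fold change of 72.4, edgeR adjusted p = 1.13e-08). Its groups did not overlap. Of the 13099 genes tested in this comparison, edgeR called 18.3%, 9.04% higher and 9.29% lower, and Cyp2b10 had the 3rd largest increase. Adding ENZA to chronic CORT raised it further, by 3.86 ± 0.29 (14.5-fold, 95% interval 3.26 to 4.47 on the log2 scale, edgeR adjusted p = 1.251e-07). All 6 CORT_ENZA mice were above all 6 CORT mice, in a comparison where 11.8% of genes were called, 6.99% higher and 4.86% lower, and the increase ranked 8th of 13099. Against Vehicle the combination was higher by 10.04 ± 0.41 (1053-fold, edgeR adjusted p = 1.329e-11), where 18.6% were called, 10.3% higher and 8.29% lower. These comparisons share groups and are not independent of each other.

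In bulk liver, more cells with the transcript and more transcript per cell cannot be told apart. The summed hepatocyte markers had a median of 105400 CPM in chronic Vehicle (97220 to 115000), 95930 in CORT (87020 to 121600) and 67880 in CORT_ENZA (57570 to 79060). Of the 6 markers, 2 were lower with ENZA added to CORT, Ttr (-1.01 ± 0.10, edgeR adjusted p = 2.464e-06) and Alb (-0.65 ± 0.13, edgeR adjusted p = 0.001894), which encode secreted plasma proteins. In this comparison 4.86% of all genes were called lower, and 3 of the 6 markers had a log2 difference above 0. The part of cell make-up in the Cyp2b10 levels was not tested. The share of pairs placed at several loci was 18.6 to 22.7% in chronic against 9.34 to 12.8% in acute libraries, and its part in these levels was not tested. B cell markers were lower with chronic CORT for 5 of 5 tested, against 9.29% of all genes (summed 0.21 to 1.7 CPM against 3.86 to 11.1 in Vehicle). The part of that shift was not tested either.

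In the acute arm Cyp2b10 was higher in livers given ENZA, with wide spread between mice. Vehicle livers ranged from 1.73 to 22.5 CPM around a median of 10.2 and CORT livers from 15.6 to 44.7 around 24.3. ENZA livers ranged from 17.9 to 137 around 57.5, and CORT_ENZA livers from 43.7 to 219 around 53.3. Means were 10.6 ± 7.99, 27.1 ± 11.4, 68.8 ± 43.7 and 90.9 ± 71.4 CPM (SD, n = 6 each), and neighbouring groups in this order overlapped. The highest values of the ENZA group were in L29A (137 CPM) and L35A (102 CPM), and those of the CORT_ENZA group in L30A (219 CPM) and L36A (132 CPM), with the other 4 mice of that group between 43.7 and 59.7 CPM.

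ENZA alone raised Cyp2b10 by 2.699 ± 0.593 on the log2 scale (6.5-fold, 95% interval 1.47 to 3.93, edgeR adjusted p = 0.02705). This was the 3rd largest increase among 13733 genes, of which 1.31% were called, 0.845% higher and 0.466% lower. Only the ENZA mouse at 17.9 CPM fell within the Vehicle range. The call was lost when L29A, L35A, L11A or Vehicle mouse L13A or L25A was left out (log2 differences of 2.38 to 2.71, edgeR adjusted p = 0.05243 to 0.0638), with no low-count filter (2.701, adjusted p = 0.06192) and in a fit of these 12 libraries alone (2.697, adjusted p = 0.09616). L29A also had the highest Kupffer marker sum of the acute arm (428.3 CPM, against 102 to 190 in the other acute mice), and its part in the ENZA difference was not tested beyond leaving it out.

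The other acute contrasts on Cyp2b10 were smaller or less certain. CORT alone gave 1.35 ± 0.58 (95% interval 0.15 to 2.56, edgeR adjusted p = 0.286), a difference that did not pass the test where 1.62% of genes were called, 0.947% higher and 0.67% lower. Adding ENZA to CORT gave 1.75 ± 0.56 (95% interval 0.57 to 2.92, edgeR adjusted p = 0.5115), also not called, and the groups overlapped only between 43.7 and 44.7 CPM. There edgeR called only 0.175% of genes, 0.167% higher and 0.00728% lower. Adding CORT to ENZA gave 0.40 ± 0.54 (95% interval -0.73 to 1.53, edgeR adjusted p = 0.8144), with 1.81% called, 1.08% higher and 0.728% lower, and the sign turned without L30A (-0.08, adjusted p = 0.9685). The combination against Vehicle passed, at 3.10 ± 0.60 (8.6-fold, edgeR adjusted p = 0.007245) and with no overlap between groups, where 2.47% were called, 1.42% higher and 1.05% lower.

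Whether CORT and ENZA add up on the log scale was tested as their interaction in the acute arm. It was -0.95 ± 0.79 for Cyp2b10 (95% interval -2.60 to 0.69, edgeR adjusted p = 0.9935) and -2.695 ± 1.427 for Cyp2b9 (edgeR adjusted p = 0.9935). edgeR called 0 of 13733 genes (0%, 0% higher and 0% lower), with 501 at an unadjusted p under 0.05, and DESeq2 and limma-voom also called 0. Of the 39 other CAR and PXR targets described below, 38 had a higher interaction value than Cyp2b10, around a median of -0.23, and 3 were above 0.

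**Figure D2:**
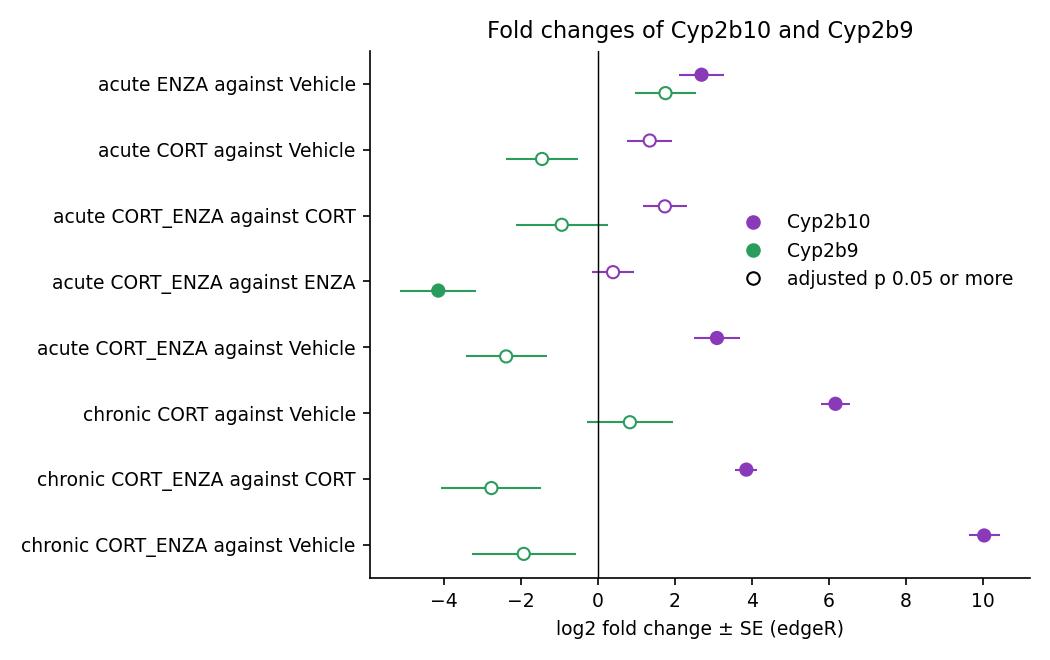
Log2 fold changes of Cyp2b10 and Cyp2b9 in 8 comparisons, with the SE from edgeR as lines and open symbols for an adjusted p of 0.05 or more. The Cyp2b10 points lie to the right of 0 throughout, up to 10.04 for chronic CORT_ENZA against Vehicle, and the Cyp2b9 points to the left except for acute ENZA (1.76) and chronic CORT (0.84) against Vehicle.

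The effect of CORT on Cyp2b10 differed between the arms. The chronic minus the acute log2 difference was 4.86 ± 0.80 in a model of all 42 libraries (95% interval 3.23 to 6.49, edgeR adjusted p = 0.0001663). It ranked 8th of 14138 genes, of which 6.17% were called, 3.73% higher and 2.44% lower. The reference groups were unlike: Cyp2b10 was at 0.458 to 1.49 CPM in chronic and 1.73 to 22.5 CPM in acute Vehicle mice, ranges that do not overlap, while CORT mice stood at 24.3 to 96.8 and 15.6 to 44.7 CPM. The part of the Vehicle levels in this difference was not tested, and kit and duration cannot be told apart. For ENZA added to CORT, the chronic minus the acute difference was 2.08 ± 0.65 (95% interval 0.77 to 3.40, edgeR adjusted p = 0.1089), not called, where 1.27% of genes were, 0.905% higher and 0.361% lower. It passed in limma-voom (2.71, adjusted p = 0.004522) and without acute mouse L30A (2.56, edgeR adjusted p = 0.03088).

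Other targets of CAR and PXR gave a frame for Cyp2b10. The list held 42 genes other than Cyp2b, 41 of them in the tables. Like the other gene lists here, it was chosen with earlier results of these data known. Its counts therefore describe the listed genes and are no independent support. With acute ENZA, 18 of 39 tested rose and 0 fell, against 0.845% and 0.466% of all genes. The list's median log2 difference was 0.62 (-0.002 over all genes), and Cyp2b10 exceeded every gene of the list. Ces2a, a carboxylesterase, rose by 1.05 ± 0.08, the P450 gene Cyp2c29 by 1.43 ± 0.14 and Cyp2c55 by 2.54 ± 0.28 (edgeR adjusted p = 2.64e-08, 9.809e-07 and 1.209e-05). Cyp3a59, a P450 gene of the Cyp3a cluster, rose by 2.19 ± 0.31 (edgeR adjusted p = 0.0006499). With acute CORT, 2 of 39 rose, against 0.947% of all genes, at a list median of -0.004. They were the sulfotransferase gene Sult1d1 (0.89 ± 0.20) and the monooxygenase gene Fmo5 (0.75 ± 0.18).

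In the acute arm ENZA on top of CORT raised 7 of 39 targets (median 0.41), against 0.167% of all genes. Among them were Cyp2c29 (1.30 ± 0.14), Ces2a (0.71 ± 0.08), Cyp2c55 (2.21 ± 0.28) and Cyp3a11 (1.18 ± 0.20), with edgeR adjusted p = 1.433e-05, 4.069e-05, 0.0001622 and 0.005397. Akr1b7, Cyp2c55 and Cyp3a59 had a larger value than the 1.75 of Cyp2b10, which itself did not pass. DESeq2 called 13 of the 39 and limma-voom 10. With CORT added to ENZA, edgeR called 0 of 39, against 1.81% of all genes, with 13 at an unadjusted p under 0.05. DESeq2 called 4 lower and limma-voom 3.

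With chronic CORT alone, 16 of 40 targets rose and 3 fell, against 9.04% and 9.29% of all genes. The list's median was 0.30, against -0.01 over all genes. Fmo5 rose by 1.52 ± 0.13, the P450 gene Cyp2c39 by 2.30 ± 0.24 and Sult1d1 by 1.21 ± 0.13 (edgeR adjusted p = 4.067e-07, 3.449e-06 and 6.135e-06). Of the 40, 1 exceeded the 6.18 of Cyp2b10, the estrogen sulfotransferase gene Sult1e1, at 7.34 ± 0.72 (edgeR adjusted p = 3.946e-06), which is also a gene of the female liver list.

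With ENZA added to chronic CORT, 31 of 40 rose and 0 fell (median 1.18, against -0.003 over all genes). Of all genes, 6.99% were called higher and 4.86% lower. Those that rose included Cyp2c29 (2.06 ± 0.11), Cyp2c55 (5.58 ± 0.29), Ces2a (2.03 ± 0.12) and Cyp3a59 (3.63 ± 0.22), each with an edgeR adjusted p of 4.394e-09 or less. Cyp2c55, Gsta1 and Gstm3 increased by more than Cyp2b10. Cyp2c55 did not follow Cyp2b10 under CORT alone: it ranged from 2.277 to 4.414 CPM in chronic Vehicle, from 0.7793 to 2.221 in CORT and from 40.71 to 87.49 in CORT_ENZA. Against Vehicle the combination raised 37 of 40 (median 1.85, with 10.3% of all genes called higher), and Cyp2b10 was above all of them. For the difference between arms, 11 of 40 were higher in the chronic arm for ENZA added to CORT, against 0.905% of all genes. For CORT 13 of 40 were, against 3.73% of all genes.

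**Figure D3:**
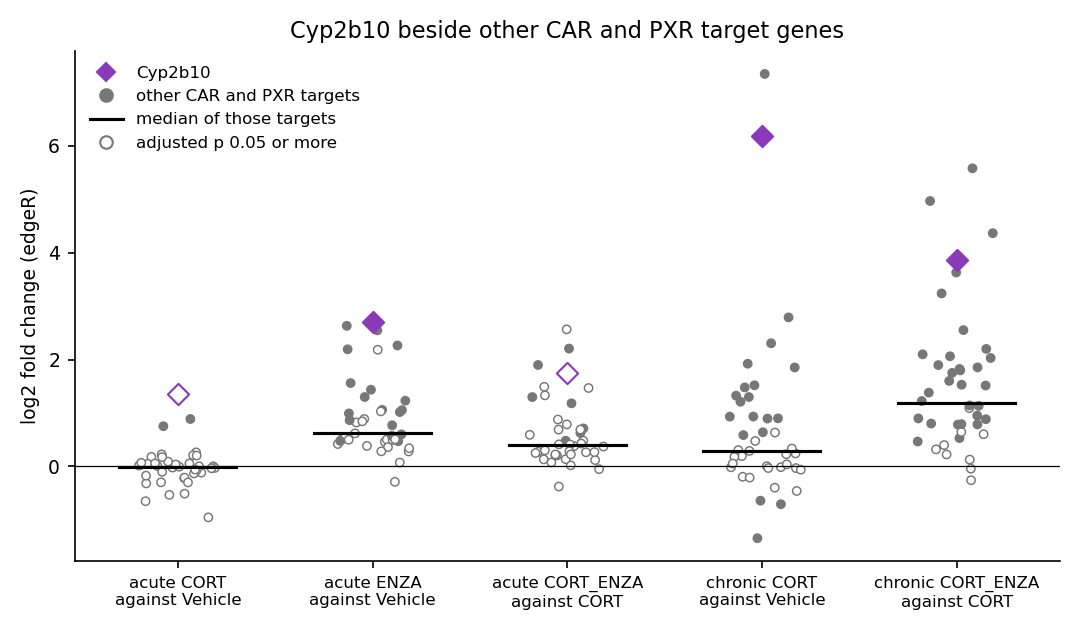
Log2 fold changes of Cyp2b10 (diamonds) and of the other tested CAR and PXR target genes (circles) in 5 comparisons, with the median of those targets as a bar and open symbols for an edgeR adjusted p of 0.05 or more. Cyp2b10 lies at or near the top of the targets in each column, and the bars stand at -0.004, 0.62, 0.41, 0.30 and 1.18 from left to right.

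The receptor genes differed by far less than Cyp2b10. Nr1i3, which encodes CAR, was at 147 ± 74.4 CPM in chronic Vehicle, 246 ± 34.8 in CORT and 225 ± 65.0 in CORT_ENZA. Its log2 difference with chronic CORT was 0.74 ± 0.26 (edgeR adjusted p = 0.05325) and with ENZA added -0.13 ± 0.26 (edgeR adjusted p = 0.8004), neither of them called. The effect of CORT on Nr1i3 was higher in the chronic than in the acute arm, by 1.29 ± 0.35 (edgeR adjusted p = 0.01917). Nr1i2, which encodes PXR, rose with acute ENZA by 0.60 ± 0.08 and with acute CORT by 0.36 ± 0.08 (edgeR adjusted p = 3.878e-05 and 0.01025).

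In the list of 13 regulators and partners of CAR and PXR, 3 rose with acute ENZA, against 0.845% of all genes. They were Nr1i2, the P450 reductase gene Por (0.66 ± 0.13, edgeR adjusted p = 0.007744) and the CAR coactivator gene Gadd45b (1.47 ± 0.36, edgeR adjusted p = 0.03571). With ENZA added to chronic CORT, where 6.99% of all genes were called higher and 4.86% lower, 1 of the 13 rose, Alas1, the rate-limiting enzyme of haem synthesis (1.75 ± 0.36, edgeR adjusted p = 0.004441), and 1 fell, Hnf4a, a hepatocyte transcription factor (-0.31 ± 0.09, edgeR adjusted p = 0.03228). With chronic CORT, 3 of the 13 rose and 1 fell, against 9.04% and 9.29% of all genes. Gadd45b rose by 1.61 ± 0.52 and Hnf4a by 0.27 ± 0.09 (edgeR adjusted p = 0.03657 and 0.04675), and Nr3c1, the glucocorticoid receptor gene, fell by 0.27 (edgeR adjusted p = 0.02975).

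Genes with a pattern like that of Cyp2b10 were sought among 11802 genes by the mean of 2 Pearson correlations of log2 CPM, over 24 acute and 18 chronic libraries. The closest were Akr1b7, an aldo-keto reductase gene (mean r 0.893), Fmo5 (0.891), the metalloproteinase gene Mmp19 (0.837), Cyp2c29 (0.833) and the glutathione transferase gene Gstt3 (0.828). The points share treatment groups, so these values describe differences between groups as well as between mice. Akr1b7 was at 0.314 ± 0.173 CPM in chronic Vehicle, 2.21 ± 0.76 in CORT and 12.9 ± 5.48 in CORT_ENZA. Of these 5 genes, 4 were on the target list and Mmp19 was not. Mmp19 changed far less than Cyp2b10, from 63.9 ± 4.56 CPM in chronic Vehicle to 106 ± 6.24 in CORT and 125.5 ± 13.3 in CORT_ENZA.

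Cyp2b9, the female-liver member, was low in all groups, and no chronic comparison on it passed the test. Per kilobase of exon, a scale on which genes can be compared, its mean level in chronic CORT_ENZA was 0.177 CPM per kb and that of Cyp2b10 399 ± 105. In chronic Vehicle, Cyp2b9 stood at 0.683 ± 0.982 and Cyp2b10 at 0.371 ± 0.174 CPM per kb, which do not differ beyond their spread. In acute Vehicle the values were 0.794 ± 0.513 and 5.01 ± 3.78.

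Acute Cyp2b9 levels in CPM were 0.69 to 3.08 (median 1.16) in Vehicle, 0 to 1.63 (median 0.371) in CORT, 0.195 to 15.1 (median 4.02) in ENZA and 0 to 1.09 (median 0.105) in CORT_ENZA. The ENZA group was split, with L35A at 15.1, L29A at 7.03 and L17A at 6.10 CPM and the other 3 at 0.195 to 1.95. In CORT_ENZA, L18A and L24A had 0 reads, which allows up to 3 counts. CORT_ENZA was lower than ENZA by -4.14 ± 0.99 on the log2 scale (edgeR adjusted p = 0.03307), the 2nd lowest value of 13733 genes, although the groups overlapped. This call was lost in limma-voom (-4.42, adjusted p = 0.1015), with no low-count filter (-4.14, adjusted p = 0.07988) and without any of L17A, L29A, L35A, L6A, L12A, L18A or L24A (-3.43 to -4.08, edgeR adjusted p = 0.05961 to 0.08638). In a fit of these 2 groups alone, Cyp2b9 did not pass the low-count filter and was not tested.

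The remaining acute contrasts on Cyp2b9 did not pass the test. ENZA against Vehicle was 1.76 ± 0.79 (95% interval 0.12 to 3.41, edgeR adjusted p = 0.3081), and limma-voom put it at 0.23. CORT against Vehicle was -1.44 ± 0.95, CORT_ENZA against CORT -0.93 ± 1.19 and CORT_ENZA against Vehicle -2.38 ± 1.05 (edgeR adjusted p = 0.5221, 0.9992 and 0.2628). Cyp2b9 and Cyp2b10 therefore had opposite signs in these 3 comparisons, but only the Cyp2b10 difference for the combination against Vehicle was called.

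Cyp2a4, a female-liver P450 gene whose start lies 96.5 kb past the end of Cyp2b9, was high in the same acute ENZA mice. It was at 131 CPM in L17A, 86.1 in L29A and 17.7 in L35A, against 0.682 to 4.88 in the other 3 mice of the group. It was the only 1 of 19 tested members of the female-biased list that edgeR called lower in CORT_ENZA than in ENZA (-5.53 ± 1.25, edgeR adjusted p = 0.02436). Of all genes 0.728% were called lower there. DESeq2 and limma-voom each called 3 of the 19 lower. With ENZA alone edgeR called 0 of the 19, against 1.31% of all genes, with 2 at an unadjusted p under 0.05. DESeq2 and limma-voom also called 0 of the 19. Of 27 male-biased genes, 1 fell with ENZA alone, against 0.466% of all genes. This was Hsd3b5, a steroid dehydrogenase gene (-1.41 ± 0.30, edgeR adjusted p = 0.0212). In CORT_ENZA against ENZA, edgeR called 3 of the 27 higher and 0 lower, against 1.08% and 0.728% of all genes. All 27 had a log2 difference above 0 (median 0.55), against 3 of the 19 female-biased genes (median -0.78). DESeq2 called 6 of the 27 higher and limma-voom 7.

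In the chronic arm, Cyp2b9 was at 0.178 to 4.96 CPM (median 0.52) in Vehicle, 0 to 12.4 (median 0.113) in CORT and 0 to 0.876 (median 0.246) in CORT_ENZA. The highest value, 12.4 CPM or 234 reads, came from CORT mouse 26, while the other 5 CORT mice had 0 to 20 reads. The log2 difference of CORT against Vehicle was 0.84 ± 1.13 (edgeR adjusted p = 0.6529) and turned to -2.20 (edgeR adjusted p = 0.1495) without that mouse. ENZA added to CORT gave -2.76 ± 1.30 (edgeR adjusted p = 0.1848) and 0.29 (edgeR adjusted p = 0.9058) without it. CORT_ENZA against Vehicle was -1.92 ± 1.34 (edgeR adjusted p = 0.3596). The chronic minus the acute difference on Cyp2b9 was 2.31 ± 1.51 for CORT and -1.86 ± 1.88 for ENZA added to CORT (edgeR adjusted p = 0.3994 and 0.737), and both changed sign without mouse 26 (-0.73 and 1.18).

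Cyp2b13 had 40 reads in all 42 libraries together, and it passed the low-count filter in neither arm, so no main test was made. The acute groups held 1 read in Vehicle, 3 in CORT, 7 in ENZA and 1 in CORT_ENZA. In the chronic arm Vehicle had 0 reads, CORT_ENZA 1 and CORT 27, all 27 in mouse 26 (1.43 CPM). That liver was thus the highest of its group for Cyp2b9 and Cyp2b13 alike. With no low-count filter, no comparison on Cyp2b13 passed (edgeR adjusted p = 0.1658 or more).

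**Figure D4:**
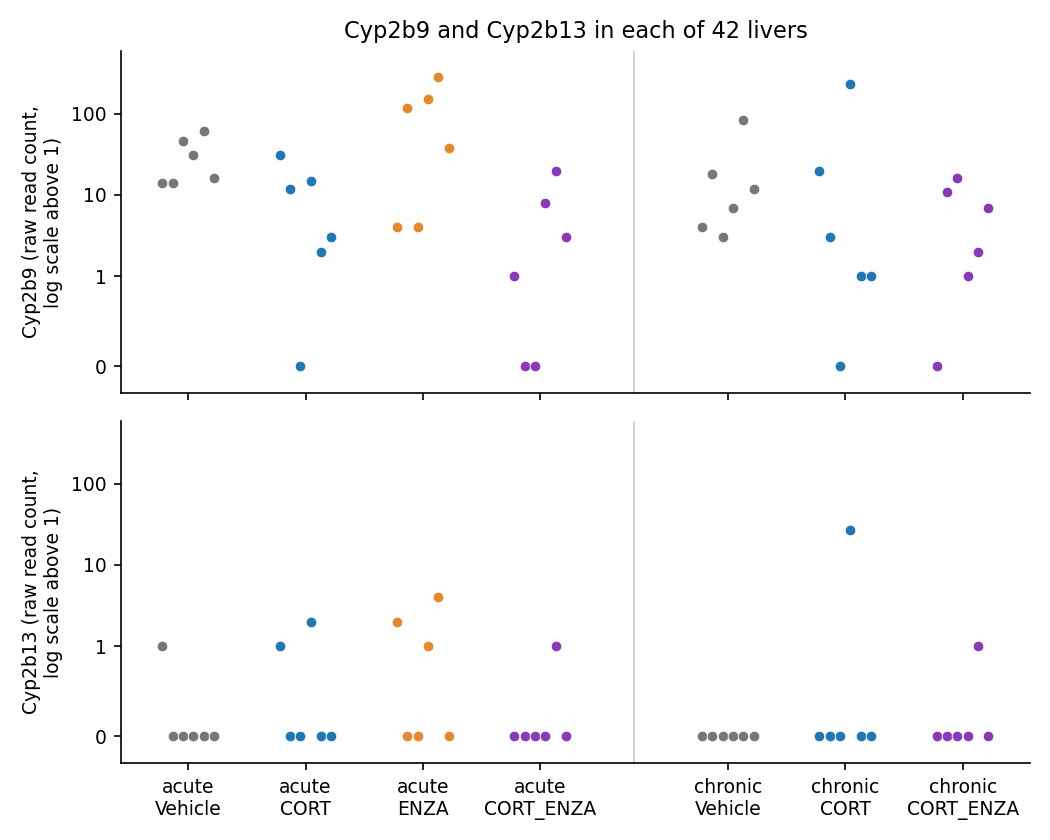
Raw read counts of Cyp2b9 and Cyp2b13 in each of the 42 livers, on an axis that is logarithmic above 1. Each point is a mouse, and chronic CORT mouse 26 stands out with 234 reads of Cyp2b9 and 27 of Cyp2b13.

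Mouse 26 was compared with the other livers over the 30 genes of the female-biased list. It was the highest of the 6 CORT mice for 12 of them, the lowest for 1 and the highest of all 18 chronic mice for 9. The mouse was singled out by its Cyp2b9 and Cyp2b13 reads. How often it was the highest over all genes was not counted, so these counts have no background beside them. Cyp3a41a had 212 reads there against at most 2 in any other chronic mouse. The hydroxysteroid sulfotransferase genes Sult2a1 and Sult2a2 had 180 and 85 reads against at most 1 and 4, and the sulfotransferase gene Sult3a1 had 107 against at most 14. Cyp2a4 had 573 reads against 3 to 6 in the other CORT mice, and CORT_ENZA mouse 18 had 543. Other genes of the list did not single it out: Cux2, a transcription factor gene, was at 28 reads against 6 to 156 in the other CORT mice.

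Of the 28 male-biased genes, mouse 26 was the highest of the CORT mice for 4 and the lowest for 4. Xist, the female X-inactivation transcript, had 0 reads in it and 0 to 3 in all chronic mice. The Y-linked gene Ddx3y had 1465 reads there, the highest of the chronic mice, and Eif2s3y had 1003. Fat cell genes were also raised in this liver, Adipoq at 37 reads and Cfd at 36 against at most 1 and 2 in the other CORT mice, although chronic mice of other groups reached 308 and 1155. Their part in the Cyp2b9 and Cyp2b13 reads was not tested. For Cyp2b10, mouse 26 was at 68.0 CPM, within the 24.3 to 96.8 of its group.

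**Figure D5:**
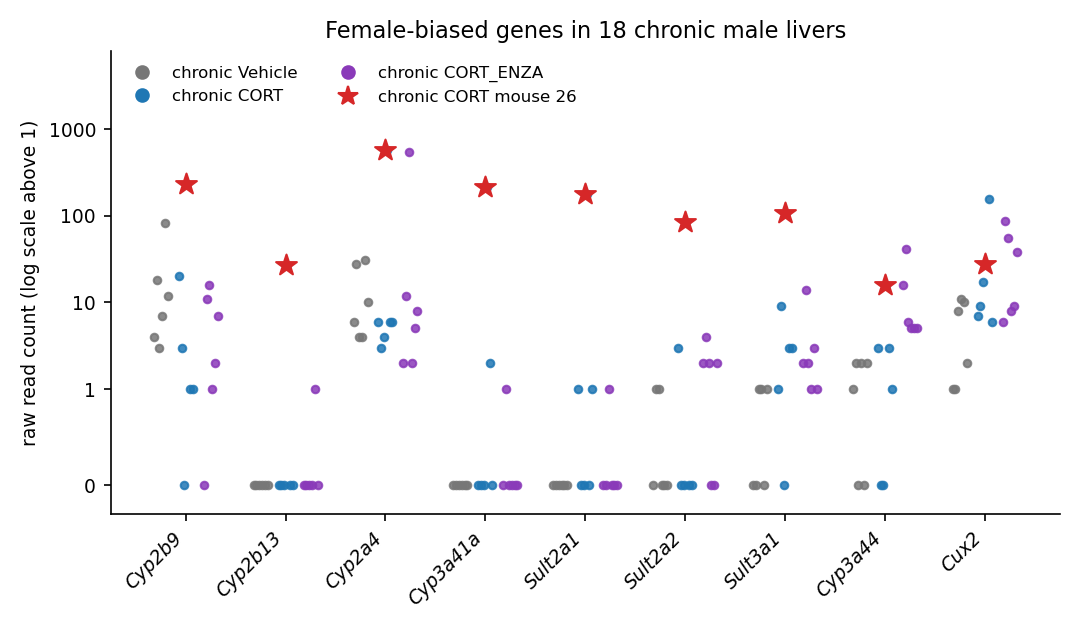
Raw read counts of Cyp2b9, Cyp2b13 and 7 other female-biased genes in the 18 chronic male livers, on an axis that is logarithmic above 1. The stars mark CORT mouse 26, which lies above every other mouse for Cyp2b9, Cyp2b13, Cyp2a4, Cyp3a41a, Sult2a1, Sult2a2 and Sult3a1 but within the other mice for Cyp3a44 and Cux2. The 7 genes were picked after their values were seen. Over the 30 genes of the female-biased list, this mouse was the highest of the chronic mice for 9.

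The other genes of the female-biased list are given beside Cyp2b9, with no test of the difference from it. With chronic CORT, 9 of 17 tested members rose and 4 fell (median 2.51, with 9.04% of all genes called higher and 9.29% lower), among them the P450 genes Cyp2c40 (5.38 ± 0.52), Cyp17a1 (3.86 ± 0.27) and Cyp39a1 (2.14 ± 0.17), with edgeR adjusted p = 3.459e-06, 5.169e-08 and 1.126e-07. Cyp2b9 was at 0.84 ± 1.13 in that comparison (95% interval -1.54 to 3.22), an interval that includes the list's median. That value rests on mouse 26: without this mouse Cyp2b9 was at -2.20, and limma-voom put it at -1.19 with all mice. The list's median without mouse 26 was not computed. With ENZA added, 2 of 17 rose and 4 fell (median -0.41), and the P450 gene Cyp2c69 fell by 4.598 ± 0.519 (edgeR adjusted p = 2.348e-05). In that comparison 6.99% of all genes were called higher and 4.86% lower, so the female-biased share that rose was not far from the background. Of 27 male-biased genes, 2 rose and 9 fell with chronic CORT, against 9.04% and 9.29% of all genes. The male-biased share that rose was near the background. With ENZA added 6 rose and 2 fell, against 6.99% and 4.86% of all genes.

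Genes whose pattern was closest to that of Cyp2b9 reached lower correlations than those of Cyp2b10. They were Vldlr, a lipoprotein receptor gene (mean r 0.648), the transporter gene Slc22a27 (0.613), Gnpda1 (0.586), Hamp2, a hepcidin gene (0.579), and Nqo2 (0.578), over the same 24 and 18 libraries. Slc22a27 is on the female-biased list. For Cyp2b13 the closest gene was Cyp2b9 (0.516), but with reads in 9 of 42 libraries the value rests mostly on mouse 26 and a few single reads.

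The family's neighbours on chromosome 7 were followed to see whether Cyp2b10 moved with its surroundings. Of 12 genes listed, 10 passed the low-count filter among acute libraries and 8 among chronic ones. With acute ENZA edgeR called 0 of 10, against 1.31% of all genes, with 3 at an unadjusted p under 0.05. DESeq2 and limma-voom also called 0. In acute CORT_ENZA against ENZA, edgeR called 2 of 10 lower, Cyp2a4 among them, against 0.728% of all genes. There DESeq2 called 3 lower and limma-voom 2. With ENZA added to chronic CORT, 3 of 8 rose, against 6.99% of all genes. They were the coumarin hydroxylase gene Cyp2a5 (2.10 ± 0.39), Cyp2g1 (1.91 ± 0.48) and Cyp2a12 (0.51 ± 0.11), with edgeR adjusted p = 0.001832, 0.01534 and 0.005976. Cyp2a5, 938 kb downstream of the Cyp2b10 start, was at 396 ± 255, 342.5 ± 128 and 1466 ± 370 CPM in chronic Vehicle, CORT and CORT_ENZA. It is also on the list of CAR and PXR targets, so it is counted in both lists. With chronic CORT, 3 of 8 rose, against 9.04% of all genes. They were the P450 genes Cyp2a12 (0.55 ± 0.11) and Cyp2f2 (0.47 ± 0.11) and the prolyl hydroxylase gene Egln2 (0.22 ± 0.07), each raised by far less than Cyp2b10.

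The rest of the Cyp2b cluster was silent or nearly so at this depth. Cyp2b23 had 5 reads in 4 libraries, Cyp2b26-ps 1 read, and Cyp2b19 and Cyp2b27-ps 0 in all 42. Gm45225, an annotated gene that shares 50-base stretches with Cyp2b9, Cyp2b10 and Cyp2b13, also had 0 reads.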

How the data were processed

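Liver RNA of 42 male mice was sequenced as stranded mRNA libraries on a DNBseq instrument (paired ends of 100 bases, as the labels' protocols say). The authors deposited 1 table of raw read counts per arm. Per the submitters' processing notes, mm10, STAR 2.7.3a, HTSeq 0.12.4, FastQC and MultiQC were used, and the sources used here name no annotation release or strand setting. The 5 summary lines per table (pairs aligned to several loci among them) were left out. Genes passed edgeR's filterByExpr (minimum count 10, minimum total 15), which kept 13733 acute and 13099 chronic genes, and 14138 in a model of all 42 libraries. Tests were edgeR 4.0.16 quasi-likelihood fits with TMM factors and robust dispersion (R 4.3.3), 1 fit per arm, with Benjamini-Hochberg adjustment over all genes and a threshold of 0.05. The code was tested on simulated data. Differences between arms came from the model of 42 libraries. Alternatives were other size factors, DESeq2 1.42.0, limma-voom (limma 3.58.1), other low-count filters, libraries left out, sets of mouse numbers as a term and fits of 2 groups.

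The members and the gene lists were chosen with earlier results of these data known. Named genes are the members, their 5 closest genes by correlation and up to 4 genes of a list with the smallest p in a comparison. Genes with larger changes than Cyp2b10, mouse 26's comparison genes, and the Y-linked, Xist and fat cell genes were picked after their values were seen. Transcripts came from GENCODE on GRCm38 and promoters from RefSeq on GRCm38.p6. No 2 libraries of a group agreed within sampling noise (lowest chi-square per degree of freedom 9.76). Intervals and floors cover counting or sample error only. Results on some genes are not reported here.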

Additional observations from a re-analysis of the deposited data

Results flagged for a closer look

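Dixon's test was applied to 20 sets, each the 6 mice of a group for 1 member gene, and singled out 1 mouse in 7 of them. Chance singles out about 1 in 20 such sets if values are normally distributed, which was not tested. The rate does not apply to Cyp2b13 in acute Vehicle, acute CORT_ENZA, chronic CORT and chronic CORT_ENZA. In these sets 5 of 6 mice had 0 reads, and the result follows from the zeros. For Cyp2b9 the mice were chronic CORT mouse 26 at 12.39 CPM and chronic Vehicle mouse 14 at 4.964 CPM. For Cyp2b13 they were chronic CORT mouse 26 at 1.43 CPM, and, with 1 read each in groups otherwise at 0, acute Vehicle L13A at 0.05152, acute CORT_ENZA L36A at 0.05451 and chronic CORT_ENZA mouse 5 at 0.05277 CPM. For Cyp2b10 it was chronic Vehicle mouse 15 at 1.489 CPM, still below every CORT mouse.

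The effect of CORT on Cyp2b10 differed between arms by 4.857 on the log2 scale (chronic minus acute, edgeR adjusted p = 0.0001663).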

How the results depend on the processing

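Over 22 results and 720 alternative fits, 695 kept direction and side of the threshold, 16 lost a call, 2 gained one and 7 changed sign. The chronic Cyp2b10 calls, the acute CORT_ENZA against Vehicle call and the difference between arms for CORT held in every alternative run. The acute ENZA call on Cyp2b10 was lost with no filter (2.701) and in the fit of 2 groups (2.697), and ranged from 2.38 to 3.06 with 1 mouse left out. The Cyp2b9 call for CORT_ENZA against ENZA was lost in limma-voom (-4.42) and with no filter (-4.14), and ranged from -5.27 to -3.43 with 1 mouse left out. The Cyp2b10 difference between arms for ENZA added to CORT was called in limma-voom (2.71) and ranged from 1.88 to 2.56 with 1 mouse left out. Acute CORT_ENZA against ENZA on Cyp2b10 ranged from -0.078 to 0.72, negative without L30A (-0.078). On Cyp2b9, mouse 26 set the sign of 4 results: chronic CORT against Vehicle (-2.20 without it, range to 2.08, and -1.19 in limma-voom), ENZA added to CORT (0.29, range from -3.31), and the differences between arms for CORT (-0.73, range to 3.54) and for ENZA added to CORT (1.18 without it, range from -2.57, and 1.19 in limma-voom). The cause of the other changes was not tested.

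Counts of called genes moved by more than 1.5 times with the tool. From edgeR to DESeq2 and limma-voom they went from 180 to 388 and 289 for acute ENZA, 222 to 432 and 346 for acute CORT, 24 to 59 and 52 for acute CORT_ENZA against CORT, 248 to 461 and 603 against ENZA, 339 to 584 and 650 against Vehicle, and 179 to 319 and 432 for the arm difference of ENZA added to CORT. limma-voom gave 3833 against 2434 for chronic CORT_ENZA against Vehicle and 1650 against 873 for the arm difference of CORT. With no filter the counts were 90 for acute ENZA, 156 for acute CORT_ENZA against ENZA and 509 for the arm difference of CORT. Fits of 2 groups gave 94, 96 and 203 for acute ENZA, CORT and CORT_ENZA against Vehicle. Leaving out L19A and L36A gave 39 for acute CORT_ENZA against CORT, and leaving out chronic 11 and 18 gave 1373 for the arm difference of CORT. Single acute mice also moved counts by over 1.5 times. Acute ENZA fell to 77 to 114 without L11A, L29A, L35A, L25A or L1A, and acute CORT to 135 to 138 without L32A, L25A, L8A or L26A. CORT_ENZA fell to 14 or 15 against CORT without L20A, L26A, L18A or L30A, to 118 to 157 against ENZA without L12A, L17A, L35A, L6A, L5A or L29A, and to 207 to 221 against Vehicle without L24A, L25A or L1A.

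No mouse number repeats between groups, so the labels pair no mice. Acute numbers do fall into 6 consecutive sets with 1 mouse per group, and a fit with these sets as a block kept every acute call on Cyp2b9 and Cyp2b10 and moved no count of called genes by over 1.5 times (339 to 427 for CORT_ENZA against Vehicle). A filter of 1 CPM in 6 libraries removed Cyp2b9 from the chronic arm, and DESeq2 gave no adjusted p for its chronic comparisons. Cyp2b9 also failed the low-count filter in the chronic fits of 2 groups. The same held in the acute fits of 2 groups for CORT_ENZA against ENZA and against CORT. Depth limits Cyp2b9 and Cyp2b13, which had fewer than 10 reads in many libraries.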
